A study of Mus musculus with 14 samples.

Results

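The guidance genes are those of the semaphorin, ephrin, Slit and netrin ligands and of their plexin, neuropilin, Eph, Robo and Unc5 receptors. They were matched by the spelling of their gene symbols, and no measured value enters that match, but the families themselves were picked with earlier results of these data known. The arrays carry 36701 probe sets other than controls, each a group of short oligonucleotides for 1 transcript, and 118 of them had such a symbol. These stood for 66 of 15964 named genes, of which 34 encode ligands and 30 encode receptors. The other 2, Unc50 and Plxna4os1, match by spelling only, and neither is a guidance receptor. They were counted apart.

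RNA was taken from mouse splenocytes that had either been enriched for follicular dendritic cells (FDC-E in the labels) or been depleted of them (FDC-D). Array sets A and C, which carry different probe sets, each measured depleted samples 1 and 2 and enriched samples 1, 2 and 3. Array set B measured the same samples except enriched 1, so 14 arrays were read in all. Strain, age, treatment and cell isolation are not given in the sources used. Nothing says that samples came from different animals, so a p-value measures only how far these samples spread, and that spread may be technical. The samples are bulk RNA, in which fewer cells of a type and less RNA per cell cannot be told apart.

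Follicular dendritic cells are stromal cells of the B cell follicle that hold antigen on their surface. Semaphorins and the other guidance cues are best known from growing axons, which they attract or repel through receptors on the cell surface, and they act in the same way on endothelial cells, fibroblasts and leukocytes. Secreted class 3 semaphorins bind neuropilins, which signal together with plexins, whereas membrane-bound semaphorins mostly bind plexins directly. Ephrins are themselves anchored in the membrane and act on Eph receptor tyrosine kinases of neighbouring cells, Slits act on Robo receptors, and netrins act on Dcc and Unc5 receptors.

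The values are linear intensities with no detection call, and array medians within a set lay close to each other (244 to 279 on A, 200.2 to 208.8 on B and 123 to 126.3 on C). Spearman correlations over probe sets were 0.9862 to 0.9954 between arrays of 1 group and 0.9093 to 0.9699 between groups. Differences were tested with limma on log2(intensity + pseudocount), the pseudocount being 88.49 on A, 81.23 on B and 53.13 on C. All fold changes below are on that scale, which understates the change of dim probe sets. Testing was limited to probe sets that exceeded the 40th percentile on 2 or more arrays, and a call needed an adjusted p under 0.05. Where a gene had several tested probe sets, the one of highest intensity rank within its array set stood for the gene. Cell type markers were set beside the labels. Their lists were chosen with earlier results of these data known, so they are no independent check of the labels. Of 13 tested follicular dendritic cell markers 11 were higher in the enriched samples, beside 19.1% of all tested genes. Of 12 tested B cell markers 11 were lower, beside 14.4% of all tested genes. Cr2 and Fcer2a, listed with B cells only, were among these 11 (log2 fold change -0.42 and -1.48). Markers of other stromal and vascular cells were higher in the enriched samples too, and their values stand beside the results further on.

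The enriched samples had higher levels of many ligand genes and of fewer receptor genes. Of 30 tested ligand genes, 14 were higher in the enriched samples, 1 was lower and 15 did not pass. Of 23 tested receptor genes, 7 were higher, 1 was lower and 15 did not pass. Among all 12267 tested genes 19.1% were called higher and 14.4% lower. The share called higher was thus 46.7% for ligands and 30.4% for receptors, and the share called lower was 3.33% and 4.35%. The median log2 fold change was 0.156 for ligands and 0.088 for receptors, beside 0.019 for all tested genes. A fold above 2 was reached by 8 ligand genes and 3 receptor genes, and by 4.09% of all tested genes. Whether ligands differ from receptors was not tested, since genes are not replicates.

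Part of the ligand count rests on probe sets that were bright enough to be tested through the enriched arrays alone, which was so for 6 ligand genes and 1 receptor gene. When only probe sets above the filter on both depleted arrays were kept, 9 of 25 ligand genes and 6 of 22 receptor genes were higher, beside 16.3% of all 11650 genes tested in this way. The ligand median was then 0.039, the receptor median 0.087 and the median of all genes 0.01. A fold above 2 was then reached by 4 ligand genes and 3 receptor genes, and by 288 of the 11650 genes. Every enriched array lay above every depleted array in 19 of 30 ligand genes and 14 of 23 receptor genes, and in 34% of all tested genes. Every enriched array lay below in 3 ligand genes and 1 receptor gene, beside 27.3% of all tested genes. The balance of higher and lower calls over all genes moved with the scaling of the arrays. It was 2347 higher against 1765 lower on the deposited scale, 1998 against 2299 after quantile normalization and 1863 against 2436 after scaling to the median array. Under both scalings the ligands kept 14 higher calls, with 3 lower, and the receptors had 6 or 7 higher and 1 lower.

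**Figure D1:**
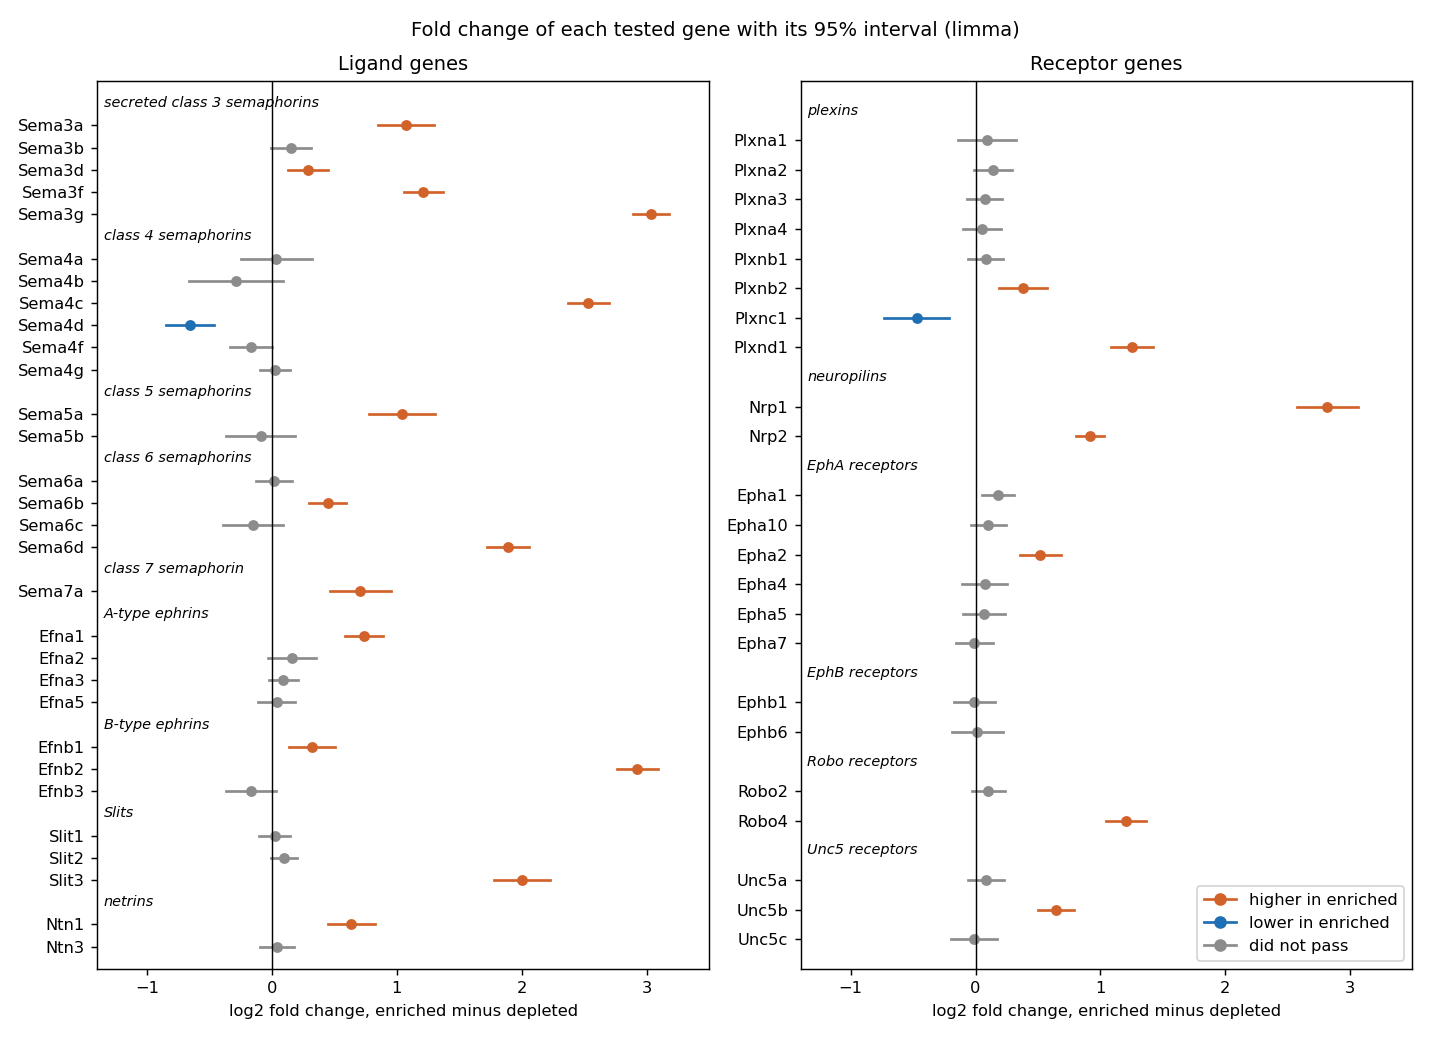
The log2 fold change of each tested ligand gene (left) and receptor gene (right), enriched minus depleted, with its 95% interval from limma, grouped by family, 1 probe set per gene. Orange marks genes called higher, blue genes called lower and grey genes that did not pass. Sema3g, Efnb2, Nrp1 and Sema4c reach furthest to the right, and only Sema4d and Plxnc1 are called to the left of 0.

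The promoters of guidance genes are shown here so that the genes with the largest differences (Sema3g, Efnb2 and Nrp1), the endothelial receptor gene Robo4 and the lower Plxnc1 can be compared letter by letter. RefSeq sequence of assembly GRCm38.p6, taken from 250 bases before each annotated start up to the base before it, was found for 56 of 64 ligand and receptor genes. The letters GGGCGG, the core of the Sp1 GC box, on either strand are in capitals.
Sema3g, chr14:31217623-31217872, plus strand: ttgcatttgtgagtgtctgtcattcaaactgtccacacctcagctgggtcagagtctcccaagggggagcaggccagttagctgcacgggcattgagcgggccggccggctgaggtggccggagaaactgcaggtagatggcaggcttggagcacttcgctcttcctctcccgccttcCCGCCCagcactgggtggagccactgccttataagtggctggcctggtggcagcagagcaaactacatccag
Efnb2, chr8:8661243-8661492, minus strand: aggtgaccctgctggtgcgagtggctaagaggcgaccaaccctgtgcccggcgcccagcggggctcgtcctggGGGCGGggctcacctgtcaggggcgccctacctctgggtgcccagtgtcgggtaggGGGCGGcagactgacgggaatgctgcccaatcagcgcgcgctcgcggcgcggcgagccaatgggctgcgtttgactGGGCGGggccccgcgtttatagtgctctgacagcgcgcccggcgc
Nrp1, chr8:128358823-128359072, plus strand: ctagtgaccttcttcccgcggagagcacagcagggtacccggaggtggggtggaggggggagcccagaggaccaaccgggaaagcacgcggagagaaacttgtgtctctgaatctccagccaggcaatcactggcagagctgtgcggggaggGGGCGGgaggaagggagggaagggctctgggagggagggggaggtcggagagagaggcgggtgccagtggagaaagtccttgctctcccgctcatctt
Robo4, chr9:37401722-37401971, plus strand: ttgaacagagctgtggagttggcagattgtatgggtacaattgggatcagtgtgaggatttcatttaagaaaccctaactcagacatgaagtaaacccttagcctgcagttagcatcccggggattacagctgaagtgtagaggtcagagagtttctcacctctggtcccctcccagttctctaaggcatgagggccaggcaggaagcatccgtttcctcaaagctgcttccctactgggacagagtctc
Plxnc1, chr10:94944846-94945095, minus strand: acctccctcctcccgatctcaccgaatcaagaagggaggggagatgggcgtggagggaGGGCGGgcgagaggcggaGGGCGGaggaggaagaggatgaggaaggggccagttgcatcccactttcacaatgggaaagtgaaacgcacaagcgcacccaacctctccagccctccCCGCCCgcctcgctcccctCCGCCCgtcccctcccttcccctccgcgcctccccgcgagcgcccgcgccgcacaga
The promoters of Efnb2, Nrp1, Sema3g and Plxnc1 held GC boxes, and that of Robo4 held none. In Efnb2 GC boxes began 177, 121 and 45 bases upstream of the start, in Nrp1 98 bases and in Sema3g 72 bases upstream. Plxnc1, which was lower in the enriched samples, held GC boxes beginning 192, 174, 76 and 57 bases upstream. Among the guidance genes a GC box occurred in 19 of 24 promoters of genes called higher (79.2%), in 2 of 4 promoters of genes called lower and in 24 of 33 promoters of genes that did not pass (72.7%). The 72 promoters of all guidance genes together had it in 72.2%, against 32.7% of all 32851 promoters in the table. Their median GC content was 64.4%, against 52.4% over all promoters. Most promoters thus held it both among the genes called higher and among those that did not pass. The ETS core CCGGAA, searched on both strands, was found in 8.33% of guidance gene promoters and 12% of all promoters. The octamer ATGCAAAT was found in 0 of 72 and in 1.6% of all promoters, and TATAAA in 2.78% and 12.4%. The GATA letters AGATAA were found in 4.17% of guidance gene promoters and 9.99% of all, the AP-1 letters TGANTCA in 4.17% and 6.75%, and the RBPJ letters TGGGAA in 16.7% and 21.6%. No match of 1 of these 7 motifs is also a match of another, and a match is a description of the sequence only.

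Class 3 semaphorins, the secreted ligands of the neuropilins, were higher in the enriched samples in 4 of 5 tested genes. Sema3g had intensities of 60.1 and 57.2 on the depleted arrays and 1116 and 1021 on the enriched arrays of set B. Its group means were 58.7 ± 2.02 (SD, n = 2) and 1069 ± 67.4 (SD, n = 2), a log2 fold change of 3.04 (SE 0.06, limma adjusted p = 1.24e-09) or 8.21-fold. It had the largest log2 fold change of all tested guidance genes, and its depleted values lay under the filter.

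Sema3f, a ligand of neuropilin 2, read 251 and 258 on the depleted and 720.4, 714 and 683 on the enriched arrays of set A. The enriched arrays lay close together and far above the depleted ones, a log2 fold change of 1.21 (SE 0.07, limma adjusted p = 3.01e-06) or 2.31-fold. Sema3a, which collapses growth cones through neuropilin 1, read 176 and 172 against 393 and 525 on set B, 2.1-fold higher (limma adjusted p = 1.72e-05). Its other tested probe sets moved the same way, 2.81-fold on set B and 2.2-fold on set A, and both of these were tested through the enriched arrays alone.

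Sema3d, a further secreted semaphorin, was higher at all 3 of its tested probe sets, but by very different sizes. The probe set that stands for the gene, on set C, read 687 and 625 against 750.2, 844 and 847, only 1.22-fold (limma adjusted p = 0.0234). A probe set on set B read 136 and 167 on the depleted and 1374 and 1707 on the enriched arrays, 6.95-fold (limma adjusted p = 2.76e-08). Another on set B read 19.6 and 16.5 against 284 and 362, 4.06-fold (limma adjusted p = 5.46e-08). Both set B probe sets would have missed the filter without the enriched arrays, so a difference there was favoured by the filter. The first exceeded it on 1 depleted array and the second on 0. The call on set C was lost without depleted 2 (limma adjusted p = 0.172), without enriched 2 (0.0696) and without enriched 3 (0.0942). Sema3b did not pass (log2 fold change 0.15, 161 and 165 against 199, 179 and 195), and Sema3c and Sema3e had no tested probe set.

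The membrane-bound semaphorins went in both directions. Sema4c, which binds plexin B2, read 147 and 146 on the depleted and 1155 and 1320.5 on the enriched arrays of set B. Its means were 146 ± 0.841 (SD, n = 2) and 1238 ± 117 (SD, n = 2), 5.78-fold higher (limma adjusted p = 6.72e-09), at a probe set that was tested through the enriched arrays alone. Sema4d, also known as CD100 and a ligand of plexin B1 and of CD72 on B cells, was the only ligand called lower. It read 1699 and 1749 on the depleted arrays and 1024, 1153 and 1016 on the enriched arrays of set A. The groups did not overlap, and the log2 fold change was -0.65 (SE 0.08, limma adjusted p = 0.000355), 1.57-fold lower.

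The other 4 class 4 semaphorins, Sema4a, Sema4b, Sema4f and Sema4g, did not pass at the probe set that stood for them. For Sema4b, tested probe sets differed. The one that stood for the gene read 469 and 436 against 477, 274 and 335 (log2 fold change -0.29, limma adjusted p = 0.205), while another read 243 and 205 against 414 and 305 and was called higher (log2 fold change 0.51, limma adjusted p = 0.0172). The latter has no value for enriched 2, so it was fitted on 2 enriched arrays, and without depleted 2 its call was lost (limma adjusted p = 0.116). The probe set that stood for the gene was in turn called lower without enriched 1 (log2 fold change -0.46, limma adjusted p = 0.00332) and with array weights (-0.35, limma adjusted p = 0.00378), so the direction of Sema4b is not settled by these arrays.

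Of the thrombospondin-repeat semaphorins of class 5, Sema5a was higher and Sema5b did not pass. Sema5a read 165 on both depleted arrays and 318, 437 and 442 on the enriched arrays of set C, 2.05-fold (limma adjusted p = 0.000374). Enriched 1 was the lowest of the enriched arrays and still lay well above both depleted ones.

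In class 6, whose members bind A-type plexins, Sema6d and Sema6b were higher and Sema6a and Sema6c did not pass. Sema6d read 272 and 313 against 1262 and 1348 on set B, 3.71-fold (limma adjusted p = 4.37e-08), and 1.58-fold at a probe set on set A (limma adjusted p = 0.00171). Sema6b read 255 and 242 against 377, 362 and 370.0 on set A, 1.36-fold (limma adjusted p = 0.000803). The groups were apart in both genes, by a smaller step in Sema6b. Sema6a had 3 tested probe sets with log2 fold changes of 0.02, 0.21 and -0.13, of which the second was called higher (limma adjusted p = 0.0246). That call was lost after scaling to the median array (limma adjusted p = 0.059) and without depleted 1 (0.0767), depleted 2 (0.151) or enriched 3 (0.0838).

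Sema7a, the semaphorin with a lipid anchor, binds plexin C1 and an integrin. It read 1155 and 1029.7 on the depleted and 1618, 1974 and 1941 on the enriched arrays of set A, 1.63-fold (limma adjusted p = 0.000873). A second probe set on the same arrays had a log2 fold change of 0.25 and missed the threshold (limma adjusted p = 0.0502), with the enriched arrays again above the depleted ones.

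Among the B-type ephrins, which span the membrane, Efnb2 and Efnb1 were higher and Efnb3 did not pass. Efnb2, known as a marker of arterial endothelium, read 121 and 118 on the depleted and 1475, 1565 and 1443 on the enriched arrays of set A. Its means were 119.8 ± 1.84 (SD, n = 2) and 1495 ± 63.2 (SD, n = 3), a log2 fold change of 2.93 (SE 0.07, limma adjusted p = 6.65e-08) or 7.6-fold. The enriched arrays agreed closely and stood far above the depleted pair, which lay under the filter. Efnb1 read 336 and 298 against 380.2 and 453 on set B, 1.25-fold (limma adjusted p = 0.0123), a call that was lost without depleted 2 (limma adjusted p = 0.109). On set A its values of 247 and 206 against 422, 409 and 412 were 1.6-fold apart (limma adjusted p = 0.000182).

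Of the A-type ephrins, which have lipid anchors, 1 of 4 tested genes was higher. Efna1, a ligand of EphA2, read 146 on both depleted arrays and 315, 293 and 299 on the enriched arrays of set A, 1.67-fold (limma adjusted p = 4.56e-05). On set C a probe set was 1.37-fold higher (limma adjusted p = 0.000581). Both were under the filter on both depleted arrays. The only Efna1 probe set tested through depleted arrays as well, on set C, did not pass (102 and 103 against 111, 102 and 103). None of Efna2 (log2 fold change 0.16), Efna3 (0.09) and Efna5 (0.04) passed.

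Among the Slits, Slit3 was higher and Slit1 and Slit2 did not pass. Slit3 read 27 and 29.9 on the depleted and 306 and 417 on the enriched arrays of set B, 4-fold (limma adjusted p = 2.09e-07), again tested through the enriched arrays alone. The ending of its probe set name, _f_at, marks a design that can match related sequences as well. The probe set that stood for Sema4b has the same ending. Of the netrins, Ntn1 read 302 and 284 against 460.0, 505 and 547 on set A, 1.55-fold (limma adjusted p = 0.000387). Its second probe set showed no such step, at 190.4 and 191 against 173, 175 and 207 (log2 fold change -0.03). Ntn3 did not pass.

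Both neuropilins, the co-receptors that bind class 3 semaphorins and vascular endothelial growth factors, were higher in the enriched samples. Nrp1 read 289 and 291 on the depleted and 2238, 2744 and 2793 on the enriched arrays of set A. Its means were 290.1 ± 1.97 (SD, n = 2) and 2591 ± 307 (SD, n = 3), a log2 fold change of 2.82 (SE 0.11, limma adjusted p = 4.05e-07) or 7.05-fold. A second, dimmer probe set read 46.2 and 55.1 against 412, 523 and 427, 3.89-fold (limma adjusted p = 1.63e-06), and was tested through the enriched arrays alone. Nrp2 read 64.1 and 65.5 against 194 and 195 on set B, 1.89-fold (limma adjusted p = 4.12e-07), with the depleted values under the filter.

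**Figure D2:**
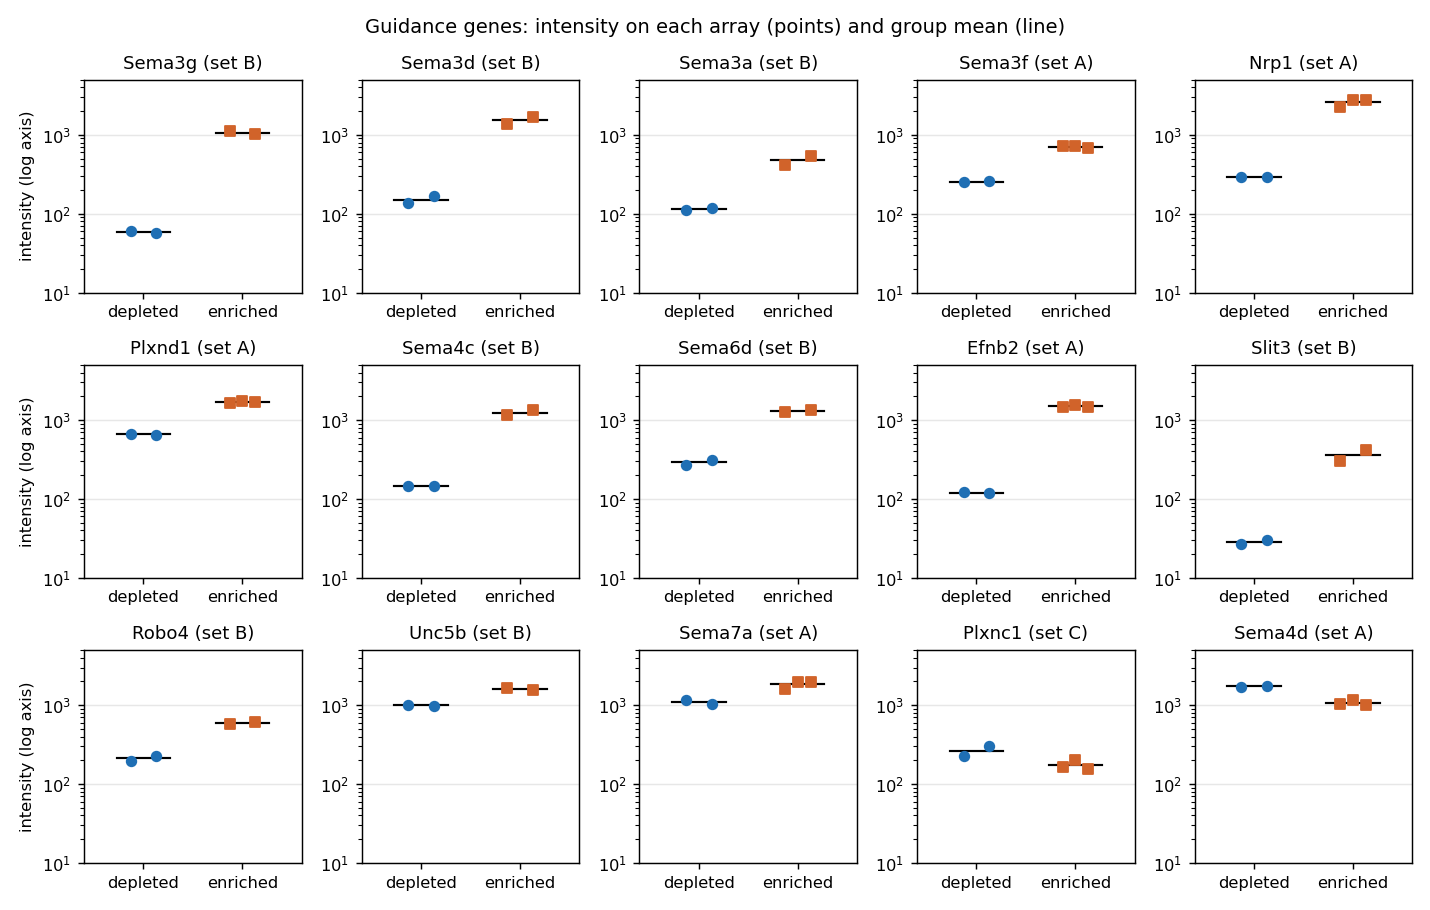
Intensity on a log axis of 15 probe sets of guidance genes, with blue points for the depleted arrays, orange squares for the enriched arrays and a line at each group mean. For Sema3d and Sema3a a probe set on B other than the one that stands for the gene is drawn. The groups do not overlap in any panel, and the enriched arrays are below the depleted ones only for Plxnc1 and Sema4d.

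Plexins, the main signalling receptors of semaphorins, were less uniform. Of 8 tested plexin genes 2 were higher, 1 was lower and 5 did not pass. Plxnd1, a receptor of endothelial cells for class 3 semaphorins, read 668 and 648 against 1637, 1752 and 1681 on set A, 2.38-fold (limma adjusted p = 4.23e-06). Plxnb2, a receptor of Sema4c, read 841 and 949 against 1248, 1145 and 1173, 1.3-fold (limma adjusted p = 0.0072). That call was lost without depleted 1 (limma adjusted p = 0.111) and after quantile normalization (0.0591), and a second probe set was 1.17-fold higher (limma adjusted p = 0.049). The second lost its call under 9 of 17 alternatives, among them both scalings (limma adjusted p = 0.369 after quantile normalization and 0.374 after scaling to the median array, log2 fold change 0.11 in each) and the replicate block (0.188). Plxnc1, the receptor of Sema7a, read 223 and 302 on the depleted and 163, 201 and 157 on the enriched arrays of set C, 1.39-fold lower (limma adjusted p = 0.0225). The 2 depleted arrays (SD 55.2) were further apart than the 3 enriched ones (SD 23.6), and the call was lost without depleted 2 (limma adjusted p = 0.151) or enriched 3 (0.0676).

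The remaining plexins tested were Plxna1, Plxna2, Plxna3, Plxna4 and Plxnb1. Plxna2 had a log2 fold change of 0.14 at the probe set that stood for it, on set B (525 and 518 against 614 and 556, limma adjusted p = 0.136). At another, on set A, it was 1.46-fold higher (237 and 238 against 389.6, 376 and 393, limma adjusted p = 0.000239), and at one on set C it did not pass. Plxnb1, a receptor of Sema4d, read 1455 and 1506 against 1569 and 1572 (log2 fold change 0.08), while a dim probe set on set C was called higher (log2 fold change 0.21, limma adjusted p = 0.0232). The latter was tested through the enriched arrays alone, and its call was lost under the replicate block (limma adjusted p = 0.0645) and without depleted 1 (0.0556), depleted 2 (0.116) or enriched 2 (0.051).

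Eph receptors mostly did not pass. Of 6 tested EphA genes 1 was higher, and neither tested EphB gene, Ephb1 or Ephb6, was called by limma. The higher gene was Epha2, the receptor of Efna1, at 466 and 481 on the depleted and 694, 705 and 749 on the enriched arrays of set A, 1.43-fold (limma adjusted p = 0.000562). Epha1 had the highest log2 fold change of the guidance genes that did not pass, 0.18 with a 95% interval of 0.05 to 0.30 (limma adjusted p = 0.0564). Ephb6, an Eph receptor without kinase activity, read 598 and 661 against 684, 578 and 650.1, with overlapping groups. Ephb4, the usual partner of Efnb2, was not analysed here.

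Robo4, the Robo receptor of endothelial cells, read 197 and 228 on the depleted and 573 and 617 on the enriched arrays of set B, 2.31-fold (limma adjusted p = 7.26e-07). Robo2 did not pass, and Robo1 and Robo3 had no tested probe set. Unc5b, a netrin receptor found on endothelial cells, read 1006 and 989 against 1638 and 1568 on set B, 1.56-fold (limma adjusted p = 2.64e-05). A second tested Unc5b probe set was 1.31-fold higher (limma adjusted p = 0.00515) and lost its call without depleted 1 (limma adjusted p = 0.0536). Unc5a and Unc5c did not pass.

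Set side by side, known ligand and receptor pairs did not all move alike. Sema3f was 2.31-fold and its co-receptor Nrp2 1.89-fold higher, Sema4c 5.78-fold and Plxnb2 1.3-fold higher, and Efna1 1.67-fold and Epha2 1.43-fold higher. Sema7a was 1.63-fold higher while Plxnc1 was 1.39-fold lower. Sema4d was 1.57-fold lower while Plxnb1 missed the threshold at a log2 fold change of 0.08. These pairs were put together from background knowledge and no test was made over them. The calls of Plxnb2 and Plxnc1 were lost under some alternatives, and Efna1 and Sema7a also had a probe set that did not pass.

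The 30 ligand and receptor genes that did not pass had log2 fold changes from -0.288 to 0.179. Of them 22 lay above 0 and 8 below. The sign of 15 of them changed under at least 1 alternative, so these directions are not calls. Their 95% intervals, which are not adjusted for the number of tests, had half-widths of 0.103 to 0.377. These are no limit of detection, since larger differences can also miss the adjusted threshold. The intervals of Epha1 (0.05 to 0.30) and Sema4f (-0.34 to -0.001) left out 0, and neither gene passed. Those of highest intensity rank within their array sets were Plxnb1, Sema4g, Sema6a, Plxna4, Sema5b, Efna2, Efnb3 and Efna3. Sema4g read 1058 and 1026 against 1044, 1034 and 1096, Plxna4 read 896 and 889 against 891 and 971, and Efnb3 read 1077 and 1095 against 1041, 882 and 957. Only Efnb3 of these 3 had every enriched array below both depleted arrays. It was called lower after quantile normalization (limma adjusted p = 0.04997), after scaling to the median array (0.0309), with array weights (0.0201) and without enriched 1 (0.0333).

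At the level of probe sets, 82 of 118 were tested, of which 35 were higher, 2 were lower and 45 did not pass. On set A 17 of 38 were higher, beside 23.1% of all tested probe sets of that set, on set B 14 of 28 beside 19.4%, and on set C 4 of 16 beside 9.5%. On sets A and C 1 each was lower, beside 17.9% and 8.73% of all tested probe sets, and on set B 0, beside 17%. Of 21 genes with more than 1 tested probe set, 7 differed in call between probe sets, and 0 had calls in opposite directions. These 7 were Efna1, Ntn1, Plxna2, Plxnb1, Sema4b, Sema6a and Sema7a. In addition, 14 tested probe sets would have missed the filter without the enriched arrays, and 13 of these were called higher. The filter itself favours that direction in such probe sets. Their share called higher among all genes was not worked out, so this count is no result about the guidance genes.

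**Figure D3:**
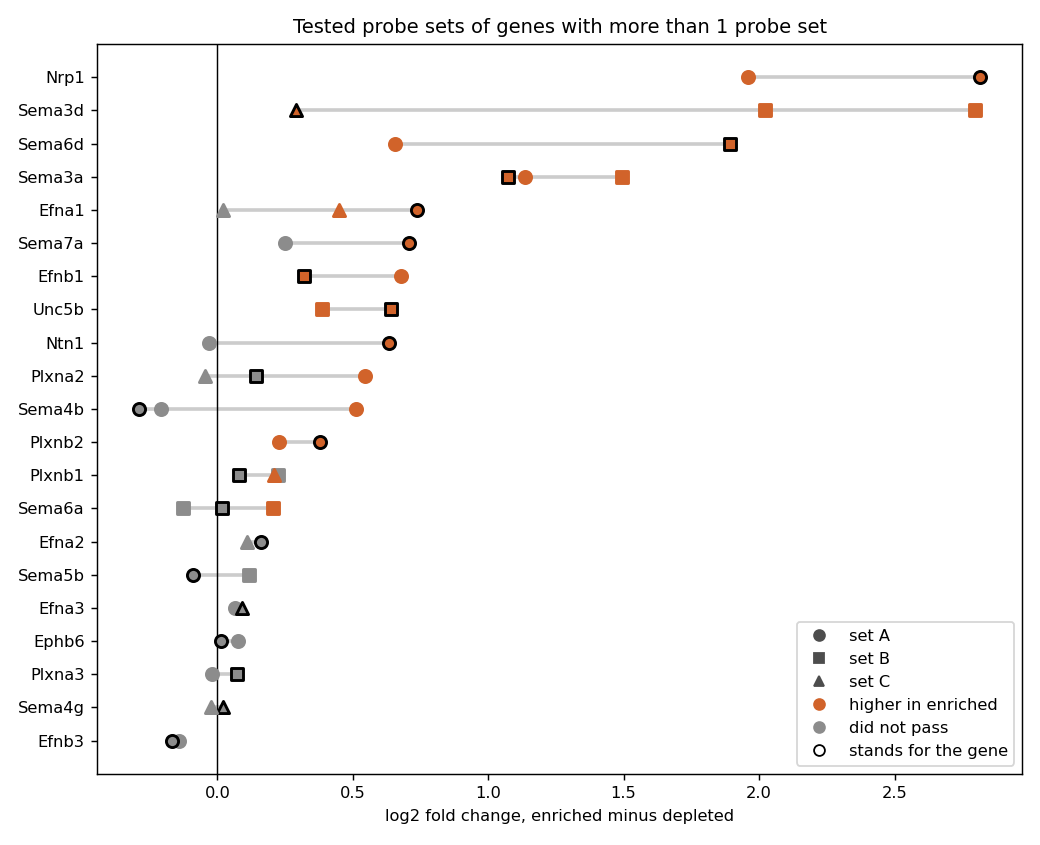
The log2 fold change, enriched minus depleted, of every tested probe set of the 21 genes with more than 1. Circles, squares and triangles are sets A, B and C, orange marks probe sets called higher and grey those that did not pass, and a black edge marks the one that stands for the gene. Sema3d spreads from 0.29 to 2.80, and no gene has probe sets called in opposite directions.

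The 36 probe sets under the filter included every probe set of 12 genes, namely Efna4, Epha3, Epha6, Epha8, Ephb3, Ntn4, Plxna4os1, Plxnb3, Robo1, Robo3, Sema3c and Sema3e. In 12 of the 36 every enriched array lay above both depleted arrays, and in 2 every enriched array lay below, beside 22.4% and 20.1% of all 13662 probe sets under the filter. Fitted with no filter, 9 of the 36 were called higher and 1 lower, beside 7.65% and 5.83% of all probe sets under the filter. A probe set of Robo1, the classical Slit receptor, singled out after its values were seen, was among them. On set A it read 85.7 and 90.6 against 162, 161 and 182, 1.45-fold (limma adjusted p = 0.000308). The other Robo1 probe set, on set C, showed no such step, at 36.4 and 34.5 against 38.8, 39.8 and 32.6 (log2 fold change 0.03, limma adjusted p = 0.804). At such dim signals the arrays give no detection call, so presence of the transcript is not shown.

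Genes that act with the guidance families were counted from a list of co-receptors, adaptors, small GTPases and actin regulators. Of 65 tested, 15 were higher, 4 were lower and 46 did not pass, with a median log2 fold change of 0.072. Among all tested genes 19.1% were higher and 14.4% lower, so the count of higher genes lay near the background and is no result about the list. The higher genes included Met, a receptor kinase that associates with B-type plexins, at 4.26-fold. Kdr, the main vascular endothelial growth factor receptor and a partner of neuropilin 1, was 4.21-fold higher, and Itga1, an integrin chain bound by Sema7a, was 3.34-fold higher. Dpysl2, a mediator of Sema3a signalling, was 2.39-fold higher, and the small GTPases Rras and Rnd3, on which plexins act or which bind them, were 1.97-fold and 1.87-fold higher. The limma adjusted p of these 6 genes ran from 6.72e-09 to 1.25e-05. The lower genes were Cd72, the B cell receptor of Sema4d, at 3.09-fold, and the actin regulators Ablim1, Evl and Vasp at 2.24-fold, 2.2-fold and 1.25-fold. Their limma adjusted p ran from 8.17e-07 to 0.0147. Evl was fitted on 2 enriched arrays, at a probe set whose name also ends in _f_at.

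Markers of several cell types moved with the guidance genes. All 19 tested endothelial markers, Robo4 and Kdr among them, were higher, with a median log2 fold change of 2.28. Summed over 12 endothelial markers on set A, intensity was 2772.5 and 2917.9 in the depleted samples and reached 20022.4 to 22494.3 in the enriched ones. Of 13 tested reticular fibroblast markers 11 were higher, and their sum on set A was 4094.6 and 4662.8 against 14021.5 to 15968. On the same set 11 follicular dendritic cell markers summed to 5974.6 and 6888.7 against 23469.6 to 27974.8. Of 14 tested macrophage markers 12 were higher, and the 12 tested on set A summed to 10702.6 and 12874.3 against 23560 to 27182.1. Of 7 tested megakaryocyte and platelet markers 5 were higher and 2 did not pass. Ppbp was 9.33-fold, Itga2b 2.76-fold, Gp9 1.22-fold and Gp5 1.19-fold higher, and Vwf, also among the endothelial markers, 3.52-fold. The 3 tested on set B summed to 1968 and 1706.8 against 3791.6 and 3187.5. That rise came from Ppbp (130 and 118 against 2126 and 1584). On the same set Itgb3 (387 and 349 against 436 and 422) and Treml1 (1451 and 1239 against 1230 and 1182) did not pass.

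Lymphocyte markers moved the other way. On set A, 9 B cell markers summed to 29257.6 and 29591.6 in the depleted samples against 9937.7 to 12428.5 in the enriched ones. Of 13 tested T cell markers 10 were lower, and the 12 tested on set A summed to 11135.7 and 10829.6 against 5205 and 4790.7 on the 2 enriched arrays with every value. Of 8 tested nerve and Schwann cell markers 1, Tubb3, was higher and 7 did not pass, with sums of 3495.9 and 3416.6 against 3666.2 to 4007.3 over 6 markers. No array listed a marker at 0. Of 8 tested NK cell markers 7 were lower, and of 8 tested neutrophil markers 5 were lower. Of 9 tested dendritic cell markers 2 were higher and 4 lower. The part of these cell types in the differences of Sema3g, Efnb2, Nrp1, Robo4, Sema4d, Plxnc1 and the other guidance genes was not tested. In these samples the follicular dendritic, endothelial, fibroblast, macrophage and megakaryocyte markers differ between the same groups. Those of lymphocytes and neutrophils differ between these groups too, so the parts of all these cell types cannot be told apart.

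**Figure D4:**
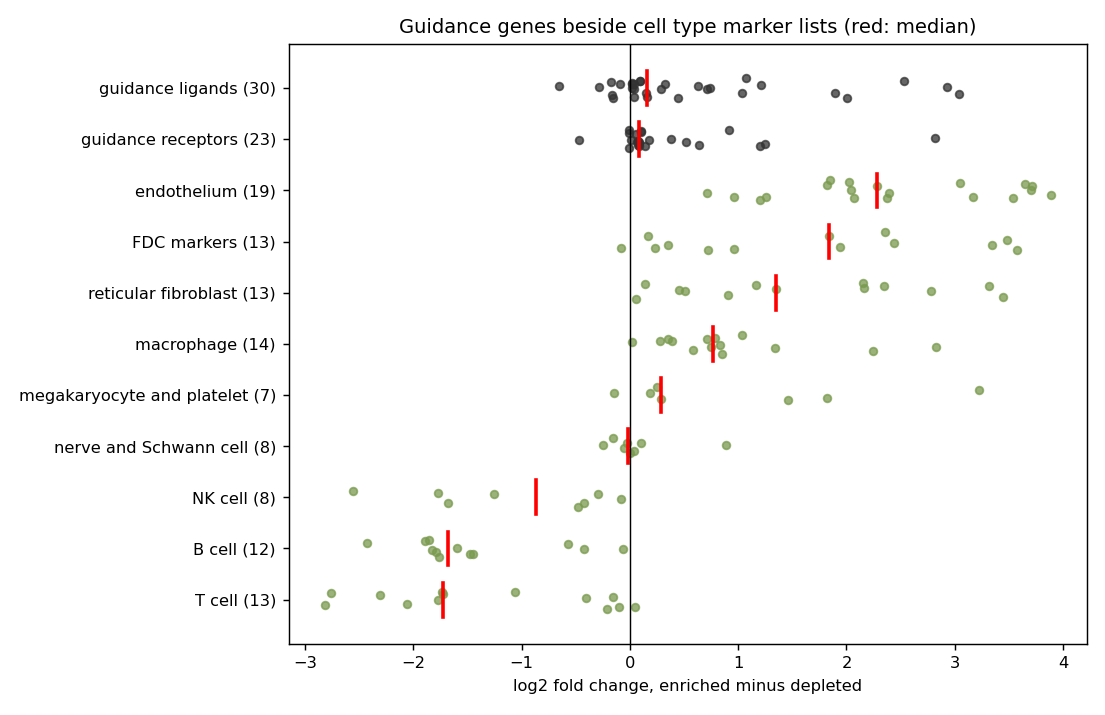
The log2 fold change, enriched minus depleted, of each tested guidance ligand and receptor gene (dark) and of each tested gene of 9 cell type marker lists (green), with the number of genes in brackets and a red line at the median. Ligands and receptors sit mostly near 0 with a tail to the right, endothelial markers are all to the right of 0, and B cell markers are all to the left.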

How the data were processed

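The authors deposited linear intensity values, per the table of each array set. Their summarising, background correction and scaling are not given in the sources used. Trimmed means (2% at each end) of the arrays within a set had ratios of at most 1.08 (A), 1.03 (B) and 1.02 (C). These were inside the 10% allowed, so the deposited scale was kept. The medians, higher on the enriched arrays of each set, were not part of that rule. Probe sets lacking a value for enriched 2 on set A were fitted without that array.

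Probe sets took their names from GEO's platform annotation, and symbols were updated by Entrez identifier to the GRCm38.p6 gene table, which held 10817 of 10833 identifiers on A, 10550 of 10581 on B and 7677 of 7717 on C. Probe sets with several symbols (396, 178 and 150) were left unnamed. The pseudocount was the 20th percentile of positive values of the set. Each set was fitted alone and two-sided in R 4.3.3 by limma 3.58.1, using lmFit, eBayes and a prior variance with a trend. Benjamini-Hochberg adjustment ran over the 7895, 7786 and 7358 tested probe sets. Scripts were tested on simulated data.

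The guidance genes and all lists were chosen with earlier results of these data known. By rule, every guidance gene that passed is named, with up to 8 that did not pass, by highest rank, and up to 6 pathway genes in each direction. Further guidance genes that did not pass are named outside this rule, to account for each family, with their values known. Unc50 did not pass and Plxna4os1 was not tested. Alternatives changed the pseudocount, filter, scaling, prior variance, array weights, adjustment, choice of probe set, symbols, pairing and samples, 1 at a time. Keeping the symbols of the annotation left every fit as it was. Set B was fitted unchanged under the replicate block and without enriched 1. Results that could not differ in these ways are counted below as kept.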

Additional observations from a re-analysis of the deposited data

How the results depend on the processing

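Of 37 called probe sets of guidance genes, 22 had a value under all 17 alternatives, and 16 of these kept their call under each. The other 15 were not tested under at least 1 alternative, 13 of the 37 under the filter on both depleted arrays, and 12 of the 15 kept their call wherever they were tested. In all, 9 lost the call under at least 1 alternative and 0 changed sign. Over guidance genes and alternatives together, 1019 results kept direction and call, 28 lost a call, 15 gained one and 35 changed sign.

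Of 30 guidance genes that did not pass, 15 changed the sign of their log2 fold change under at least 1 alternative. All of these lay within 0.0916 of 0 as reported and within 0.151 of 0 after the change, and 0 of the changed values passed limma's threshold. After quantile normalization it became -0.02 for Epha4, -0.0873 for Ephb6, -0.0037 for Plxna1, -0.0832 for Sema4a, -0.0124 for Sema6a and -0.0116 for Slit1. After scaling to the median array it became -0.035 for Epha4, -0.1036 for Ephb6, -0.0024 for Ntn3, -0.0126 for Plxna1, -0.0893 for Sema4a, -0.0079 for Sema4g, -0.0265 for Sema6a and -0.0136 for Slit1. With array weights it became -0.151 for Sema4a. With the replicate block it became -0.0035 for Sema4g and 0.0123 for Unc5c. With 1 sample left out it ranged from -0.057 to 0.1285 for Efna5, -0.0066 to 0.1537 for Epha4, -0.0606 to 0.1906 for Epha5, -0.0608 to 0.0429 for Epha7, -0.0789 to 0.0623 for Ephb1, -0.0493 to 0.0779 for Ephb6, -0.0031 to 0.112 for Plxna4, -0.0759 to 0.1429 for Sema4a, -0.0035 to 0.0414 for Sema4g, -0.1966 to 0.0143 for Sema5b, -0.0232 to 0.0585 for Sema6a, -0.009 to 0.0488 for Slit1 and -0.0727 to 0.0218 for Unc5c. Their direction is thus not settled.

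The ligand genes called higher, 14 as reported, were 9 when probe sets had to pass the filter on both depleted arrays, an alternative chosen after seeing the data that tests fewer genes, and 10 to 14 with 1 sample left out. The ligand genes called lower, 1 as reported, were 3 after quantile normalization, 3 after scaling to the median array, 5 with array weights and 1 to 5 with 1 sample left out, the highest without enriched 1. The receptor genes called lower were 0 to 1 with 1 sample left out, being 0 without depleted 2 and without enriched 3. The receptor genes called higher stayed between 6 and 9. The pathway genes called lower, 4 as reported, were 8 after scaling to the median array, 9 with array weights, and 7 whether a gene was taken at its probe set of smallest p or at any passing one. Among the ligands, Efnb3 and Sema4f gained a lower call under both scalings, with array weights and without enriched 1. Sema4b and Sema6c gained one with array weights and without enriched 1. The cause of these moves was not tested.

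The sample numbers were not treated as pairing the samples. Deviations of same-numbered samples from their group means correlated at 0.032 and 0.057 on A, 0.162 on B and -0.242 and -0.101 on C. Those of samples with different numbers correlated at -0.057 to 0.03 on A, -0.162 to 0.162 on B and -0.178 to 0.242 on C. With 2 depleted arrays the values mirror each other by construction, so they cannot show whether samples were paired. With the replicate block on sets A and C, set B leaving no residual degrees of freedom, 13 ligand and 7 receptor genes were higher and 1 of each was lower, with 14 and 3 pathway genes higher and lower. Sema3d on set C (limma adjusted p = 0.139) was among the calls lost under the block. With 2 depleted and 2 or 3 enriched arrays per set, precision is limited by the number of arrays.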
